A study of Rattus norvegicus with 6 samples.

Results

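The immediate early AP-1 and EGR factors were followed in rat mesenchymal stem cells from bone marrow (MSCs, which can become bone, cartilage or fat cells) held in stiff or soft hydrogel. The 10 genes, Fos, Fosb, Fosl1, Fosl2, Jun, Junb, Jund, Egr1, Egr2 and Atf3, were chosen by name from the 33589 rows of the deposited gene table, and each name had 1 row. The stiff group was kept in hydrogel of 18 kPa and the soft group in hydrogel of 2 kPa, both for 48 h, with 3 polyA RNA libraries per group analysed here, while the study's design text speaks of quadruplicates. Both groups were grown in low-glucose medium with serum, and cells were taken out of the gel before the libraries were made. The labels do not spell out SA, the name of the hydrogel, and give no strain, sex or age of the rats. Nor do they say if the replicates came from separate cultures or rats. The p-values therefore measure only the spread between these libraries, which may be technical.

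AP-1 is a dimer of leucine zipper (bZIP) proteins, usually a Fos protein paired with a Jun protein, that binds DNA at a short palindromic site. Several of its subunits, and the zinc finger factors Egr1 and Egr2, belong to the immediate early genes, which serum, growth factors, stretch or stress can switch on within minutes without new protein synthesis and whose mRNAs are mostly short-lived. In stromal cells AP-1 is known for its part in proliferation, matrix protease expression and bone formation. Atf3 is a related bZIP factor induced by stress.

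In stiff gel none of these factors passed the test against soft gel. Fos was at 10.9 ± 0.388 FPKM in stiff and 12.4 ± 0.228 FPKM in soft gel (SD, n = 3 each), and Jun at 32.3 ± 2.19 FPKM in stiff and 37.8 ± 2.42 FPKM in soft gel. For both, the 3 stiff libraries lay below the 3 soft ones, but neither difference passed over all genes. Egr1 was at 63.6 ± 3.59 FPKM in stiff and 64.4 ± 0.506 FPKM in soft gel. FPKM, as the authors deposited them, relate fragments to gene length and to library size, so levels can be set side by side between genes.

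Reads recovered from the FPKM came to between 14966354 and 16711527 per library. Mitochondrial genes took 2.15% of the reads of soft replicate 1 and between 2.85% and 3.33% elsewhere, and values without it are given below for the genes it touches. Of 14 MSC markers, 13 had a mean of at least 1 FPKM, and Lepr did not, at 0.143 FPKM in stiff and 0.101 FPKM in soft gel. Leukocyte markers were also present, 9 of the 15 found at 1 FPKM or more. Their summed level was 367.4 to 395.5 FPKM in the stiff libraries and 417.5 to 423.7 FPKM in the soft ones. No MSC or endothelial marker was called in limma over the genes averaging 1 FPKM or more, although 2 MSC markers were with array weights; only 2 endothelial markers reached 1 FPKM, and no erythroid marker did. Cd3e, which defines T cells, was listed at 0 in every library, as were 4 globin genes. These are bulk libraries, so fewer cells of a type and less RNA per cell cannot be told apart. The part of leukocytes in the results below was not tested.

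The level of the 10 genes spanned more than 2 orders of magnitude per length. Junb was highest, between 124.3 and 173.4 FPKM over the 6 libraries, followed by Jund (86.5 to 108.5), Fosl2 (80.5 to 114.8), Egr1 (60.7 to 67.6), Jun (30.8 to 40.6), Fosl1 (25.1 to 29.8), Fos (10.5 to 12.7), Egr2 (3.53 to 4.22), Atf3 (1.54 to 2.31) and Fosb (0.506 to 0.878). Only Jund and Fosl2 overlapped as neighbours in this order. The place of Fosl2 depends on the table's gene length, which is 744 bases within a span of 18060 and was the shortest of the 10. Read counts ran from 3581 to 5190 per library for Junb and from 31 to 55 for Fosb.

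**Figure D1:**
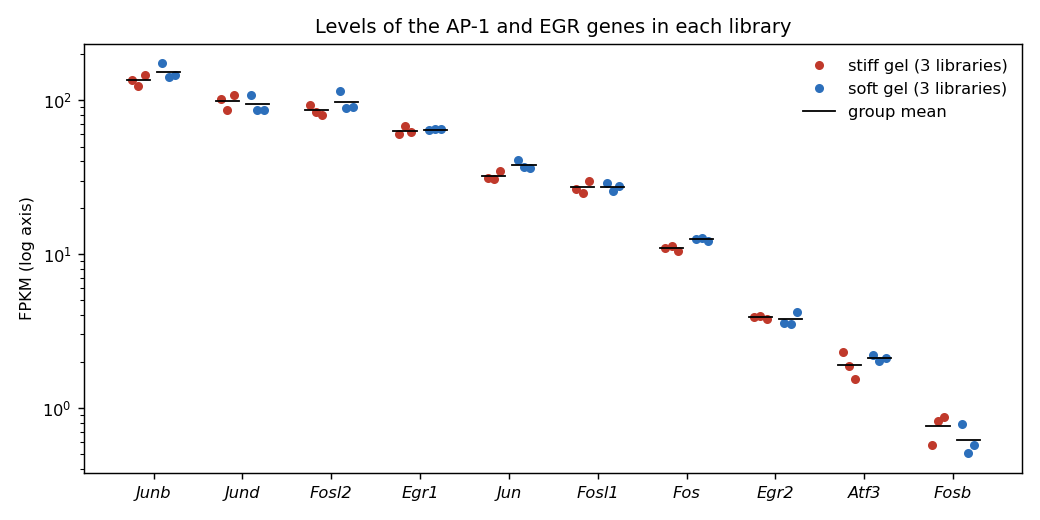
FPKM of each gene (log axis) in the 3 stiff (red) and 3 soft (blue) libraries, with black lines at the group means, ordered by mean level. Junb is highest and Fosb lowest, and only for Jun and Fos do the 3 red points all lie below the 3 blue points.

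The stiff and soft libraries were compared with limma on log2(FPKM + 1) over the 12713 genes that averaged 1 FPKM or more, with Benjamini-Hochberg adjustment over all of them. On this scale the change of low genes is understated. The fold intervals given below are for FPKM + 1 and are too narrow for such genes. Over all tested genes 182 were called at an adjusted p under 0.05, 1.43% of those tested, with 128 higher (1.01%) and 54 lower (0.425%) in stiff gel, or 88 and 68 when every library was scaled to the same FPKM sum. Of the 10 factors, 9 passed the level filter and none of these was called, by limma or by voom on recovered reads. At an unadjusted p under 0.05 there were 2 of 9, Fos and Jun, where 15.4% of all tested genes did as much. The same 2 genes had stiff libraries wholly below soft ones, as did 10.9% of all tested genes, and none had them wholly above (11.7% of all; 22.6% in either direction). The median log2 fold change was -0.10 over the 9 genes and 0.0013 over all tested genes. Of the 9, 2 lay above 0 and 7 below, where 6403 of the 12713 tested genes lay above 0. These counts of the 9 were the same at equal FPKM sums, after quantile normalization and with voom. The signs of Fosl1, Egr1 and Egr2 turned in other settings, given below. Fosb, at a mean under 1 FPKM, was tested only without the level filter.

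**Figure D2:**
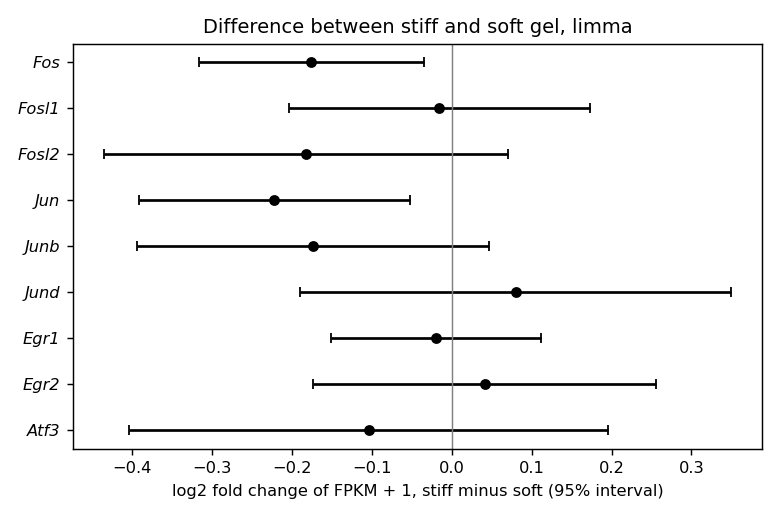
Log2 fold change of FPKM + 1, stiff minus soft, from limma for the 9 genes over the level filter, with 95% intervals that are not adjusted for the number of genes tested. The intervals of Fos and Jun lie below 0 and those of the other 7 genes span it.

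Among the Fos proteins, which cannot form stable dimers with themselves and need a Jun partner, Fos is the classic serum-induced subunit. Fos (ENSRNOG00000008015, chromosome 6 from 109300433 to 109303299 as the table places it, with no build named) had 11.0, 11.3 and 10.5 FPKM in stiff replicates 1 to 3, against 12.4, 12.7 and 12.2 FPKM in soft replicates 1 to 3. The stiff libraries were all lower, and the ratio of the means was 0.876. Its log2 fold change was -0.18 (SE 0.060, limma adjusted p = 0.230). The 6 libraries held 260 to 332 Fos reads each, so counting error alone amounts to 6.02% in stiff and 5.54% in soft gel, more than the observed coefficients of variation of 3.55% in stiff and 1.83% in soft libraries.

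Fosl1 (Fra-1) and Fosl2 (Fra-2) lack the strong activation domain of Fos, and their expression is generally more sustained. Fosl1 had 26.6, 25.1 and 29.8 FPKM in stiff replicates 1 to 3, against 28.8, 25.6 and 27.9 FPKM in the soft ones, and the groups overlapped. Its log2 fold change was -0.015 (adjusted p = 0.956 in limma), with a 95% interval for the fold of 0.869 to 1.13. The sign of the Fosl1 value turned without soft replicate 1, to 0.020, and without stiff replicate 2, to 0.038. Fosl2 had 93.5, 83.7 and 80.5 FPKM in the stiff libraries, against 114.8, 89.4 and 90.0 FPKM in the soft ones. Soft replicate 1 stood above the rest, and the groups overlapped through stiff replicate 1. The Fosl2 log2 fold change was -0.18 (limma adjusted p = 0.474; fold interval 0.740 to 1.05), and -0.065 without soft replicate 1.

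Fosb, an inducible Fos protein with a role in bone mass in mice, was close to the limit of counting. It had 0.574, 0.827 and 0.878 FPKM in stiff libraries, from 32, 50 and 55 reads, against 0.780, 0.506 and 0.575 FPKM in soft libraries, from 49, 31 and 35 reads. Stiff replicate 1 lay among the soft values. The exact 95% Poisson interval, which covers counting error only, was 0.393 to 0.811 FPKM in stiff replicate 1 and 0.344 to 0.718 FPKM in soft replicate 2, the lowest library. Without the level filter the log2 fold change was 0.12 (SE 0.107, limma adjusted p = 0.713). The observed coefficients of variation, 21.4% in stiff and 23.0% in soft libraries, were above the 14.8% in stiff and 16.2% in soft gel that counting alone gives.

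Jun proteins pair with each other and with Fos proteins. Jun itself is a strong activator, Junb is often a weaker one that can oppose Jun, and Jund is expressed more constantly and less dependent on serum. Jun (ENSRNOG00000026293, chromosome 5 from 114011189 to 114014277 in the table's coordinates) had 31.2, 30.8 and 34.8 FPKM in stiff replicates 1 to 3, against 40.6, 36.6 and 36.3 FPKM in the soft ones. All stiff libraries were lower, although stiff replicate 3 came within 1.46 FPKM of soft replicate 3. The ratio of means was 0.854 and the log2 fold change -0.22 (SE 0.072, limma adjusted p = 0.215), or -0.17 without soft replicate 1. Over the other settings tried, the smallest adjusted p was 0.102 for Jun and 0.103 for Fos, both in limma with array weights.

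Junb (ENSRNOG00000042838, chromosome 19 from 26092974 to 26094756 in the table's coordinates) had 136.0, 124.3 and 146.4 FPKM in stiff libraries, against 173.4, 141.4 and 145.0 FPKM in soft libraries. Stiff replicate 3 lay between the soft values, and soft replicate 1 was the highest. The Junb log2 fold change was -0.17 (limma adjusted p = 0.437; fold interval 0.761 to 1.03), and -0.082 without soft replicate 1. Jund (ENSRNOG00000019568, chromosome 16 from 20485029 to 20486707) had 102.6, 86.6 and 108.4 FPKM in stiff libraries, against 108.5, 86.5 and 86.8 FPKM in soft libraries. Each group held high and low libraries and the groups overlapped fully. The Jund log2 fold change was 0.080 (limma adjusted p = 0.795; fold interval 0.877 to 1.27), and 0.19 without soft replicate 1. Soft replicate 1 was the highest of the 6 libraries for 4 genes, Fosl2, Jun, Junb and Jund, and the lowest for none.

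Because a ratio of 2 genes in the same library is free of the scaling between libraries, the balance among family members was also set side by side. Junb made up 50.8 ± 0.557% of the summed Jun family FPKM in stiff and 53.8 ± 0.314% in soft gel, and Jund 37.1 ± 1.15% in stiff and 32.9 ± 0.659% in soft gel (SD, n = 3 each). Jun made up 12.1 ± 0.601% in stiff and 13.3 ± 0.649% in soft gel. Junb over Jund was 1.32, 1.44 and 1.35 in stiff libraries, against 1.60, 1.64 and 1.67 in soft libraries. The stiff ratios were all lower, with a log2 difference of -0.26, and between -0.29 and -0.23 when each library was left out in turn. The difference of Junb over Jund was 5.27 times the pooled SD of the log2 ratio, the most of any pair among the 9 genes. It was picked from 36 ratios after their values were seen, and with 3 libraries a side no exact two-sided p can be under 0.1. Of these 36 ratios 8 had groups that did not overlap, where 22.3% of all ratios between 2 tested genes did, so the number of parted ratios was near the background. Summed Jun family over summed Fos family FPKM was 2.05, 2.00 and 2.38 in stiff libraries, against 2.06, 2.06 and 2.05 in soft libraries, and the groups overlapped. Without Fosl2, whose level depends on its short table length, that ratio was 6.87 ± 0.319 in stiff and 7.03 ± 0.570 in soft gel.

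**Figure D3:**
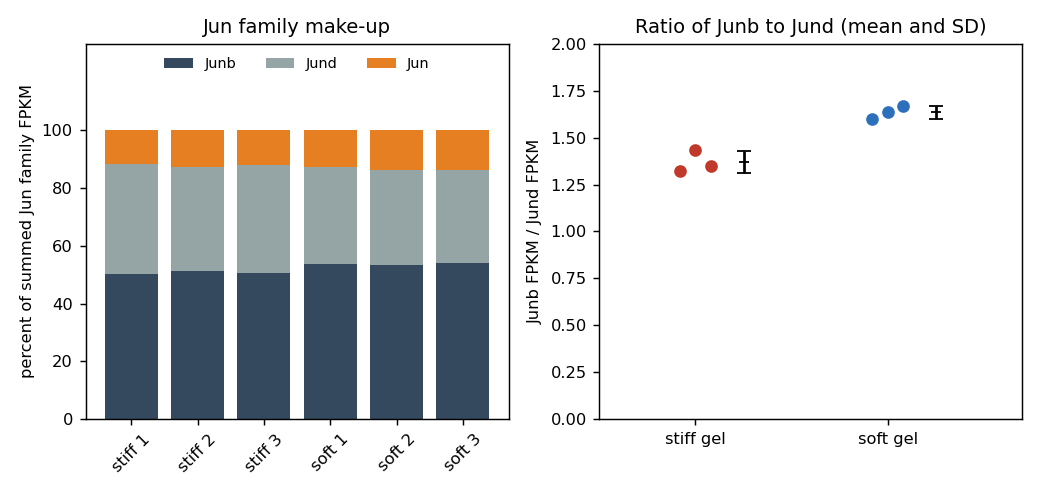
Left, share of each Jun gene in the summed Jun family FPKM of each library, in percent. Right, Junb FPKM over Jund FPKM in each library (points) with mean and SD (black): the stiff libraries lie between 1.32 and 1.44 and the soft ones between 1.60 and 1.67.

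The bases before the start of Junb and Jund are shown because their ratio parted the groups most among the 36. Their upstream motifs differ, but a link between motifs and ratio was not tested. Both are the 250 bases before the start in RefSeq on GRCr8, 5′ to 3′ on the gene's strand, Junb at chr19:40080876-40081125 (plus strand) and Jund at chr16:18769772-18770021 (minus strand). Capitals mark matches to the motifs searched.
Junb: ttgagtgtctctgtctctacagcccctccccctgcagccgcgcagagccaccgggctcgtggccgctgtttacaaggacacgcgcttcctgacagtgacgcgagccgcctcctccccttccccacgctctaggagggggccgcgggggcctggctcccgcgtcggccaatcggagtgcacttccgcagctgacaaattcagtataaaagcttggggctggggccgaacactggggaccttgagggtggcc
Jund: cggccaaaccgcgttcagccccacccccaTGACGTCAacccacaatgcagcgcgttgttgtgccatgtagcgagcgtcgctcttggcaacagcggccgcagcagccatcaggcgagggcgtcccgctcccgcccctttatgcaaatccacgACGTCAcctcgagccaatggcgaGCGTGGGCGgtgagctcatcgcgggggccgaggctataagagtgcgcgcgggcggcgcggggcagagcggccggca
The motifs, read on both strands, were the AP-1 site TGACTCA, the cyclic AMP response element (CRE) TGACGTCA, its shorter core ACGTCA, the EGR sites GCGTGGGCG and GCGGGGGCG, and the CArG box bound by serum response factor (SRF). The CArG box was searched only as CC, then 6 bases of A or T, then GG. The shorter core lies within every full CRE. Jund had a full CRE from 221 to 214 bases before the start, a further core from 99 to 94 and an EGR site GCGTGGGCG from 76 to 68. The Junb window held no match to these letters. Among all 33469 RefSeq windows of this length, 4.05% held the AP-1 site, 1.59% the full CRE, 6.95% the core, 0.478% GCGTGGGCG and 2.45% GCGGGGGCG. A window was found for 7 of the 10 genes; Fos, Jun and Atf3 had none in the table. No window of the 7 held the AP-1 site.

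The EGR genes encode zinc finger activators that bind GC-rich sites. Egr1 is induced through SRF together with ETS-type partners, and Egr2 is a close relative known for its role in nerve and bone cells. Egr1 (ENSRNOG00000019422, chromosome 18 from 27657628 to 27661429 in the table's coordinates) had 60.7, 67.6 and 62.5 FPKM in stiff replicates 1 to 3, against 63.8, 64.7 and 64.7 FPKM in the soft ones. The soft values fell within the range of the stiff ones. With 2828 to 3419 reads per library, the Egr1 log2 fold change was -0.020 (limma adjusted p = 0.909), with a 95% interval for the fold of 0.901 to 1.08. Egr2 had 3.92, 3.94 and 3.81 FPKM in stiff libraries, against 3.54, 3.53 and 4.22 FPKM in soft libraries. Soft replicate 3 was the highest and the other soft libraries the lowest, so the groups overlapped. The Egr2 log2 fold change was 0.041 (limma adjusted p = 0.880). Its fold interval, for FPKM + 1 and so too narrow at this level, was 0.887 to 1.19.

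Both EGR genes had a match to the CArG box, the SRF site, which is why their upstream bases are shown. Egr1 lies at chr18:26736828-26737077 (plus strand) and Egr2 at chr20:21054442-21054691 (minus strand), again the 250 bases before the start in RefSeq on GRCr8, with motif matches in capitals.
Egr1: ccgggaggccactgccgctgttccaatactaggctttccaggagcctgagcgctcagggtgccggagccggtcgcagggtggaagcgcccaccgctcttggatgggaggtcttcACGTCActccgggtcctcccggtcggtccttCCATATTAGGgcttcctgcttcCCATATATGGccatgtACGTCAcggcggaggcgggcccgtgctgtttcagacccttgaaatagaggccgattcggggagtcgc
Egr2: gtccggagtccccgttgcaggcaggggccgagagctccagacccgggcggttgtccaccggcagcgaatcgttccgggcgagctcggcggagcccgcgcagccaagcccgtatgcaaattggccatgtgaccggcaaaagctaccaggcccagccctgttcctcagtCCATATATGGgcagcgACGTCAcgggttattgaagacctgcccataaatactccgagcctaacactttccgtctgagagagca
Egr1 had 2 CArG boxes, CCATATTAGG from 105 to 96 and CCATATATGG from 83 to 74 bases before the start, and 2 CRE cores, from 136 to 131 and from 67 to 62. Egr2 had CCATATATGG and a CRE core at the same distances, 83 to 74 and 67 to 62. CArG boxes were in 1.5% of all windows of this length and in 2 of the 7 windows found. Fosl2 had an EGR site GCGGGGGCG from 249 to 241, and the windows of Fosb and Fosl1 held no match. The windows of the contractile genes Acta2, Cnn1 and Actg2, searched in the same way, held no CArG box of that exact pattern and no other match. Looser CArG boxes were not searched for, and the Acta2 window does hold CCCTATATGG and CCTTGTTTGG, which come close to the pattern. A match describes the letters only and is no measurement of binding, and no match says only that these letters are not in the window.

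**Figure D4:**
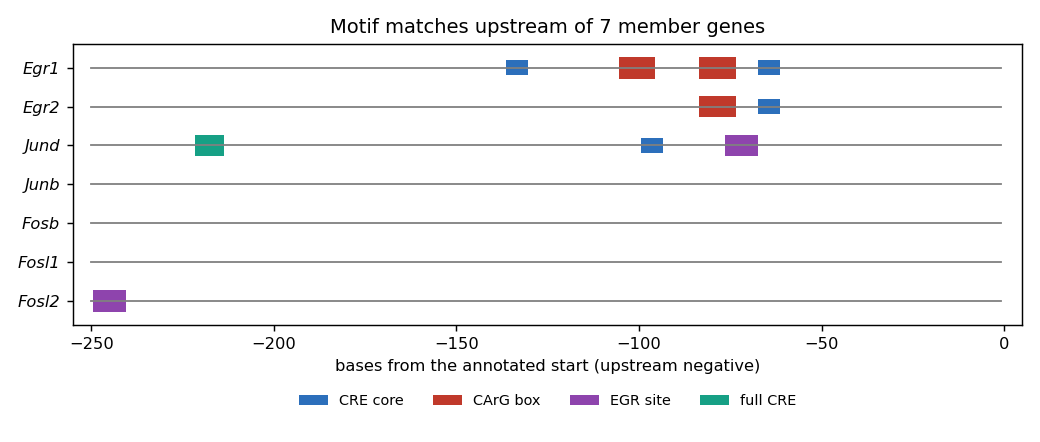
Motif matches (coloured boxes) by their distance in bases from the annotated start, in the 250 bases upstream of the 7 genes with a RefSeq window. CArG boxes appear only for Egr1 and Egr2, and the full CRE only for Jund, where it covers its own core.

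Atf3, a stress-induced bZIP factor that pairs with Jun proteins and often represses, was low. It had 2.31, 1.87 and 1.54 FPKM in stiff replicates 1 to 3, from 100, 88 and 75 reads, against 2.19, 2.01 and 2.11 FPKM in the soft ones, from 107, 96 and 100 reads. The stiff libraries held both the highest and the lowest value. The Atf3 log2 fold change was -0.10 (SE 0.128, limma adjusted p = 0.758). Its fold interval, for FPKM + 1 and so too narrow at this level, was 0.756 to 1.15. The stiff coefficient of variation was 20.2%, against 10.7% from counting alone, and the soft one was 4.20%, against 9.95% from counting.

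ATF4, which induces Atf3 under amino acid shortage and endoplasmic reticulum stress, has other targets that rose in stiff gel. In limma 6 rose and none fell of 15 measured genes of that list, which counts Atf4 itself. Of all tested genes 1.01% were called higher, but the list was chosen with earlier results of these data known. The median log2 fold change of the list was 0.31, with Ddit3 (-0.0070), Slc7a11 (-0.063) and Ddit4 (-0.19) below 0 and not called. Between 1 and 3 genes of the list were called when any library other than soft replicate 1 was left out. Trib3, a pseudokinase that restrains ATF4 signalling, was at 11.5 ± 1.50 FPKM in stiff and 5.48 ± 0.618 FPKM in soft gel (log2 fold change 0.95, adjusted p = 0.0129). Psat1, an enzyme of serine synthesis, had 15.9, 16.1 and 15.9 FPKM in stiff libraries, against 9.97, 10.2 and 9.92 FPKM in soft libraries (0.62), and the serine enzyme gene Phgdh (0.54) and the amino acid transporter gene Slc7a5 (0.55) rose too. Phgdh, Trib3 and Slc7a5 lost the call without stiff replicate 1 or soft replicate 3, Phgdh and Trib3 also without stiff replicate 3, and Phgdh also without stiff replicate 2 or soft replicate 2. Whether Atf3 and these genes differ from each other in response was not tested.

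Genes that act with or upstream of the factors gave no call in the limma comparison over 12713 genes, and a few under other settings. For each list below, its count at an unadjusted p under 0.05 stands against 15.4% of all tested genes. Other immediate early genes had 0 calls among 22 tested (6 at an unadjusted p under 0.05, 5 higher and 1 lower; 2 with voom), with a median log2 fold change of 0.043. In limma they had 4 calls with array weights, 2 over genes averaging 5 FPKM or more, 2 without soft replicate 1, and 1 each after quantile normalization and with FPKM sums made equal. By abundance, Rhob, a small GTPase gene, was at 179.4 ± 7.63 FPKM in stiff and 177.0 ± 11.6 FPKM in soft gel, and its sign turned when FPKM sums were made equal (-0.028) or quantiles were (-0.030). Zfp36l1, which promotes mRNA decay, was at 164.2 ± 7.43 FPKM in stiff and 175.0 ± 12.4 FPKM in soft gel. The 2 genes called by voom were named after their values were seen. Klf2, a flow- and serum-responsive zinc finger gene, was at 16.8 ± 2.18 FPKM in stiff and 10.1 ± 1.75 FPKM in soft gel (limma adjusted p = 0.0609; 0.0313 with voom). Zfp36, whose protein speeds the decay of short-lived mRNAs, was at 56.8 ± 2.46 FPKM in stiff and 71.2 ± 3.31 FPKM in soft gel (limma adjusted p = 0.0530; 0.0256 with voom).

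Of 16 leucine zipper genes, partners or relatives of Fos, Jun and Atf3, none was called by limma (1 with voom), with a median of -0.025. At an unadjusted p under 0.05 there were 7, 1 higher and 6 lower, where 15.4% of all tested genes did as much. With array weights limma called 3 of the 16, and after quantile normalization 1. In 6 of the 16 the stiff libraries lay wholly below the soft ones, against 10.9% of all tested genes, and in none wholly above (11.7% of all). The 22 other immediate early genes leaned the other way, with 6 wholly above and 2 wholly below. The voom call was Maf, also 1 of the 2 most abundant, at 133.4 ± 2.36 FPKM in stiff and 159.3 ± 10.5 FPKM in soft gel (limma log2 fold change -0.25, adjusted p = 0.101). The other, Cebpb, was at 353.8 ± 24.7 FPKM in stiff and 330.5 ± 46.1 FPKM in soft gel. Maf is known from macrophages among other cells, and the leukocyte markers Cd68 and Cd53 fell (-0.53 and -0.56), while Adgre1 rose (0.30). Cd68 and Cd53 lost the call without each library other than soft replicate 1, and Adgre1 in each fit that left out a library. The part of macrophages in the Maf values was not tested. Among the 39 tested genes that the table itself places in the bZIP family, Atf5, an ATF4-related factor, was the only limma call, at 110.6 FPKM in stiff and 88.7 FPKM in soft gel (adjusted p = 0.0300).

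The MAP kinase cascades and the SRF and ETS factors that carry signals to these promoters had 0 limma calls among 21 (1 at an unadjusted p under 0.05; 0 with voom; median -0.043). Mapk3 (ERK1) was at 103.0 ± 1.75 FPKM in stiff and 93.7 ± 2.23 FPKM in soft gel (0.14, adjusted p = 0.228), and its activating kinase gene Map2k1 at 86.0 ± 1.31 FPKM in stiff and 85.1 ± 0.903 FPKM in soft gel. The feedback inhibitors, phosphatases and corepressors that immediate early signalling induces, had 0 limma calls among 17 (2 at an unadjusted p under 0.05; 1 with array weights, 0 with voom; median 0.023). Errfi1, an inhibitor of the EGF receptor, was at 176.9 ± 3.22 FPKM in stiff and 179.6 ± 3.49 FPKM in soft gel, and the phosphatase gene Dusp1 at 70.7 ± 2.53 FPKM in stiff and 75.2 ± 3.32 FPKM in soft gel.

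Genes described as targets of the factors, listed with earlier results of these data known, were called in part. Of all tested genes 1.01% were called higher and 0.425% lower. Of 21 AP-1 targets 2 rose and none fell in limma, with a median of 0.047, and voom also called Spp1 (-0.27 in limma, adjusted p = 0.0574), named after its value was seen. Leaving out any library left 1 call. Hbegf, an EGF receptor ligand gene, was at 10.6 ± 0.661 FPKM in stiff and 7.36 ± 0.639 FPKM in soft gel (0.47, limma adjusted p = 0.0472), and lost the call in each fit that left out a library and at equal FPKM sums. Of 13 EGR targets 4 rose and none fell, with a median of 0.099: Ccn2 (0.94), Thbs1 (0.69), F3 (0.53) and Ccn1 (0.49). Ccn1 lost the call without stiff replicate 1 or soft replicate 3, and F3 without each library other than soft replicate 1. Thbs1 and the Ccn genes are also known targets of TGF-beta or YAP, and these lists do not tell the inputs apart.

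For contrast, 9 of 15 contractile genes that use SRF with its MRTF cofactors rose and none fell (1.01% of all tested genes rose). This list was also chosen with earlier results of these data known, and its median was 0.33. The count of called genes was 5 when any library other than soft replicate 1 was left out, and 5 without the variance trend. Acta2 (log2 fold change 1.38), Cnn1 (1.33), Tagln (1.07) and Myl9 (0.82) had the smallest p-values. In the same libraries the log2 fold change was -0.020 for Egr1 and -0.18 for Fos. As ratios of mean FPKM, Egr1 was at 0.987 times and Fos at 0.876 times its soft level. Whether the EGR genes and the contractile genes differ in response was not tested.

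**Figure D5:**
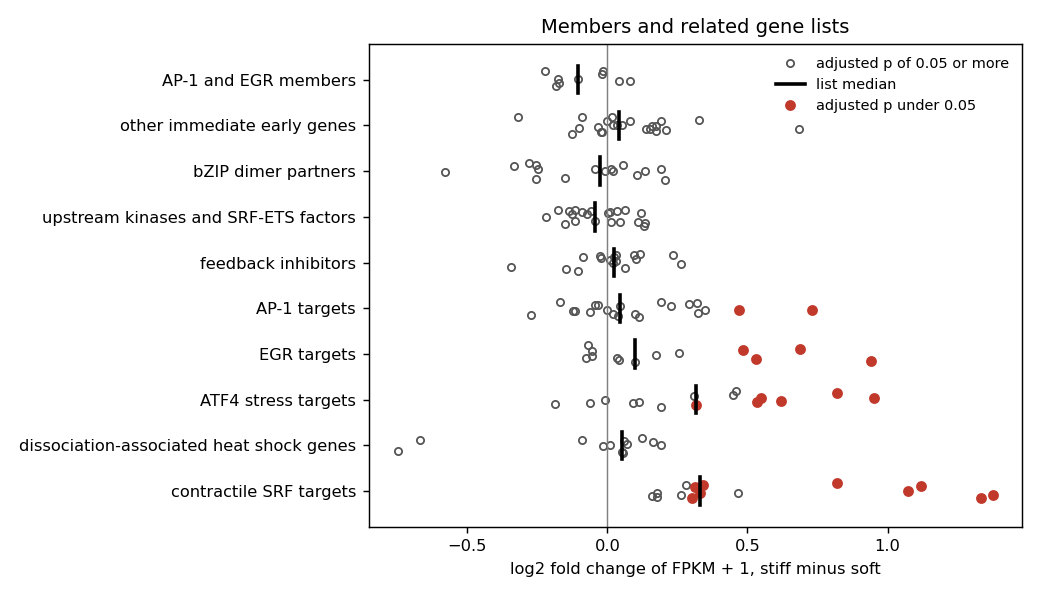
Log2 fold change of FPKM + 1, stiff minus soft, for each tested gene of the 9 AP-1 and EGR members and of 9 related lists; filled points passed a limma adjusted p of 0.05 and black lines are list medians. Calls appear only in the AP-1 target, EGR target, ATF4 target and contractile lists.

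Cells were taken out of the gel before lysis, and heat shock genes described as induced during cell release had 0 limma calls among 12 (2 at an unadjusted p under 0.05; 2 with array weights, 1 with voom; median 0.054). The most abundant, Hsp90ab1, was at 0.051 on the log2 scale (limma adjusted p = 0.645), with its sign turned after quantile normalization (-0.059), and Hspa5 was at 0.19 (limma adjusted p = 0.0832). The voom call, named after its value was seen, was Hspa1b at 1.49 ± 0.355 FPKM in stiff and 2.92 ± 0.228 FPKM in soft gel. The part of cell release in the levels of the immediate early genes was not tested, and no library was made without it.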

How the data were processed

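PolyA RNA of 6 libraries, 3 stiff and 3 soft, was analysed from a single table of FPKM that the authors deposited. Per the submitters' processing notes the tools were Bowtie 0.12.9, Cufflinks 2.1.1 and HTSeq, whose version is missing. The mouse builds mm10 and GRCm38 stand in those notes, but the identifiers are rat Ensembl ones and the build of the table is not named. Strand handling is not stated; no other row of the table overlaps any of the 10 genes. Multiplying FPKM by gene length gave, in each library, multiples of 1 step, and 100% of the results were whole to a tolerance of 0.0001. Reads recovered in this way served for depth and for voom.

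Genes averaging 1 FPKM or more were tested with limma 3.58.1 in R 4.3.3 on log2(FPKM + 1). The model held the group alone, with a variance trend; tests were two-sided, with a Benjamini-Hochberg threshold of 0.05. The fit was tested on simulated data. The 10 genes and 13 gene lists were chosen with earlier results of these data known. Genes named from a list were its called members, at most the 4 of smallest p; a list without calls gave its 2 genes of highest mean FPKM. Not every gene so chosen is reported here. Alternatives changed the pseudocount, filter, scaling, variance model, weights and block, used voom, or left out each library. After the data were seen, the ratio of Junb to Jund was also recomputed without each library.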

Additional observations from a re-analysis of the deposited data

How the results depend on the processing

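None of the 10 factors was called under any setting that tested it. Fosb was tested only without the level filter, and Egr2 and Atf3 were left out of the fit over genes averaging 5 FPKM or more. Fos, Fosl2, Jun, Junb and Atf3 stayed below 0 and Jund above 0 throughout, while Fosl1 turned to 0.020 without soft replicate 1 and 0.038 without stiff replicate 2, Egr1 to 0.013 without stiff replicate 1, and Egr2 to -0.039 with array weights. Over all genes 182 were called (128 higher, 54 lower). The count was 92 (71, 21) with no level filter, 112 (85, 27) without the variance trend, 685 (430, 255) with array weights, 317 (190, 127) with voom, and between 26 and 159 (19 to 116 higher, 7 to 43 lower) with each library left out. Of these counts, the 190 with voom and the 159, 116 and 43 without soft replicate 1 lay within 1.5 times of their counterparts. The cause was not tested, except that leaving out a library removes a sample. With the replicate number as a block, 105 genes were called (78, 27). The numbers are not said to pair samples, and same-numbered libraries had correlations of their deviations of 0.055, 0.12 and -0.078 over genes. With single libraries left out, the far end of the range was -0.082 for Fosl1, -0.064 for Egr1 and 0.074 for Rhob. Of the list genes, Rhob turned to -0.028 at equal FPKM sums, -0.030 after quantile normalization, and -0.0042, -0.0052 and -0.0063 without stiff replicate 3, soft replicate 2 and soft replicate 3; Map2k1 to -0.035, -0.041 and -0.0013 at equal sums, after quantile normalization and with voom; and Hsp90ab1 to -0.059 after quantile normalization. Read depth limits Fosb, Atf3 and Egr2 most.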
